A study of Mus musculus with 14 samples.

Results

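The EphB receptors and their transmembrane ligands, the ephrin-Bs, were followed as a family of 8 genes. Membership followed the gene family, and the family was chosen with earlier results of these data known. The receptors were Ephb1, Ephb2, Ephb3, Ephb4 and Ephb6, and the ligands were Efnb1, Efnb2 and Efnb3. The 8 genes were all found in the table of 36118 genes, and the 8 passed the filter on low counts that left 16637 genes. Hippocampal RNA was measured on postnatal day 15 in 14 C57/BL6 mice, 1 library per mouse. WT-RA (n = 4) and KO-RA (n = 3) mice were kept in room air, and WT-O2 (n = 4) and KO-O2 (n = 3) mice breathed 85% oxygen from day 1 to day 14. KO mice were homozygous for a CRISPR/Cas9 deletion in exon 5 of Gsdmd, which encodes the pore-forming protein gasdermin D. The deletion is present in every cell of the animal, and the WT mice are described as littermates. The methods give the strain of the KO line as C57BL/6N.

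EphB receptors are receptor tyrosine kinases that bind ephrin-Bs on a neighbouring cell, so signalling needs contact between cells. It runs in both directions, forward into the cell that carries the receptor and in reverse into the cell that carries the ligand. In the hippocampus the family is known for axon guidance, for the growth of dendritic spines and excitatory synapses, and for the niche of dentate progenitors. In vessels, Efnb2 marks arteries and Ephb4 veins.

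The libraries held between 27272270 and 28257496 estimated counts, so depth was nearly equal. Gsdmd had 41 to 63 counts in the WT and 22 to 42 in the KO libraries, and these gene totals do not show the deletion itself. For 1 mouse, GSD408 (WT-O2 replicate 4), the sample title names hyperoxia but its treatment entry names room air, and the title was followed. WT and KO mice also carry separate ranges of mouse numbers, and genotype cannot be told apart from whatever goes with those ranges. Hippocampal markers were present in every group, with the 10 dentate granule cell markers summing to 382 to 762 CPM (counts scaled to library size), and so were markers of neighbouring regions. The 12 striatal projection neuron markers summed to 350 to 816 CPM in WT and 149 to 247 in KO libraries, and the 13 thalamic markers to 224 to 1160 and 268 to 309. Fewer cells of a type and less RNA per cell cannot be told apart in bulk tissue.

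Levels of different genes are compared here as CPM per kilobase of the median protein-coding transcript of GENCODE M21. On this scale Efnb3, the ligand that acts as a barrier for growing axons at the midline, had the highest median over the 14 libraries, 66.9 (range 44.1 to 78.4). Ephb6 followed at 22.8, Ephb1 at 15.3, Efnb2 at 14.7, Ephb2 at 13.1 and Ephb3 at 8.21. Efnb1 at 3.44 (2.83 to 4.58) and Ephb4 at 1.65 (1.28 to 1.98) were lowest. At this length the ranges of Ephb3 and Efnb1 did not overlap, nor did those of Efnb1 and Ephb4. Every other pair of neighbours in this order overlapped, and Efnb3 and Ephb6 did so through WT-RA replicate 3, where Ephb6 reached 50.9 and Efnb3 was at 44.1. With the longest transcript as the length, Ephb1 (median 13.4) stood above Ephb6 (12.8), the rest of the order was as before, and Ephb3 (3.22 to 6.36) overlapped Efnb1 (2.83 to 4.58).

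**Figure D1:**
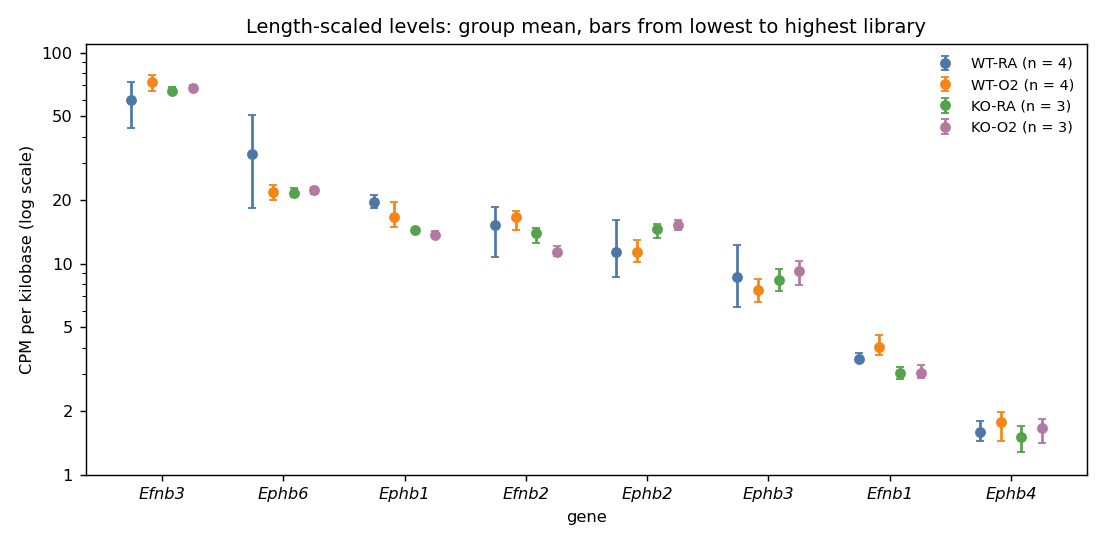
CPM per kilobase of median transcript length on a log axis, by gene from highest to lowest, with points for group means and bars from the lowest to the highest library. Efnb3 sits at the top with a median of 66.9 and Ephb4 at the bottom with 1.65, and Ephb6 in WT-RA spans 18.4 to 50.9.

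Genes were called by the thresholds of the study, a change of at least 0.32 on the log2 scale, a p below 0.05 and an adjusted p below 0.1. In room air 2 of the 8 genes, Ephb1 and Ephb6, were called and both were lower in KO, beside 10.4% of all genes tested (6.7% lower in KO). In hyperoxia 2 of the 8, Efnb1 and Efnb2, were called and again both lower in KO, beside 6.86% of all genes (4.35% lower in KO). The members' share was not tested against these backgrounds. RefSeq promoter windows (GRCm38.p6) were found for 7 of the 8 genes. The 250 bases before the start are shown for Ephb1, Efnb1 and Efnb2, the called genes whose window holds no exon of the same gene in GENCODE M21. Capitals mark CCAAT and GGGCGG on either strand.
Ephb1 (chr9:102354694-102354943, minus strand): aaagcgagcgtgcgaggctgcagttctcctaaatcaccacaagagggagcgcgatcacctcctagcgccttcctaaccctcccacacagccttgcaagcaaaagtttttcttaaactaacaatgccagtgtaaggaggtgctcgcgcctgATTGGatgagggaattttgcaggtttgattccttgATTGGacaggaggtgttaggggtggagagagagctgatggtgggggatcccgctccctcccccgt
Efnb1 (chrX:99135811-99136060, plus strand): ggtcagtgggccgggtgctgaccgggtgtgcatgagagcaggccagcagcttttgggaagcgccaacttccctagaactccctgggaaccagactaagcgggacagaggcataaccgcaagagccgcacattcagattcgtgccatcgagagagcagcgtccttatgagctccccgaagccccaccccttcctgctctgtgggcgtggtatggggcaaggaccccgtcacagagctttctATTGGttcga
Efnb2 (chr8:8661243-8661492, minus strand): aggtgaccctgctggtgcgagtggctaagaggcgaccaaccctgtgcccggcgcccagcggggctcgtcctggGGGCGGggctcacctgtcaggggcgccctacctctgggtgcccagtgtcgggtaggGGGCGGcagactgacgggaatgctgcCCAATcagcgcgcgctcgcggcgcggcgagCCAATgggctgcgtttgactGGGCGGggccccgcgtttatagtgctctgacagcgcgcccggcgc
CCAAT was found in 5 of the 7 windows and in 33.8% of 32851 windows of the same length, and GGGCGG in 4 of 7 and 32.7%. Ephb1 holds 2 CCAAT matches and no GGGCGG, Efnb1 holds 1 CCAAT match that begins 10 bases before the start, and Efnb2 holds 2 CCAAT and 3 GGGCGG matches. TATAAA on either strand, in 12.4% of all windows, was found only for Efnb2 among the 7. There it lay on the opposite strand, as TTTATA in the sequence shown, beginning 30 bases before the start. ACGTG, the core of the hypoxia response element, was found for Ephb3 and Ephb6 and in 16.6% of all windows. The 3 windows shown differ in base composition, with 54% GC for Ephb1, 60% for Efnb1 and 72% for Efnb2 beside a median of 52.4% over all windows. The Ephb1 window overlaps an exon of Gm26846, a gene on the opposite strand, and whether counting used strand is not given in the sources used here.

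**Figure D2:**
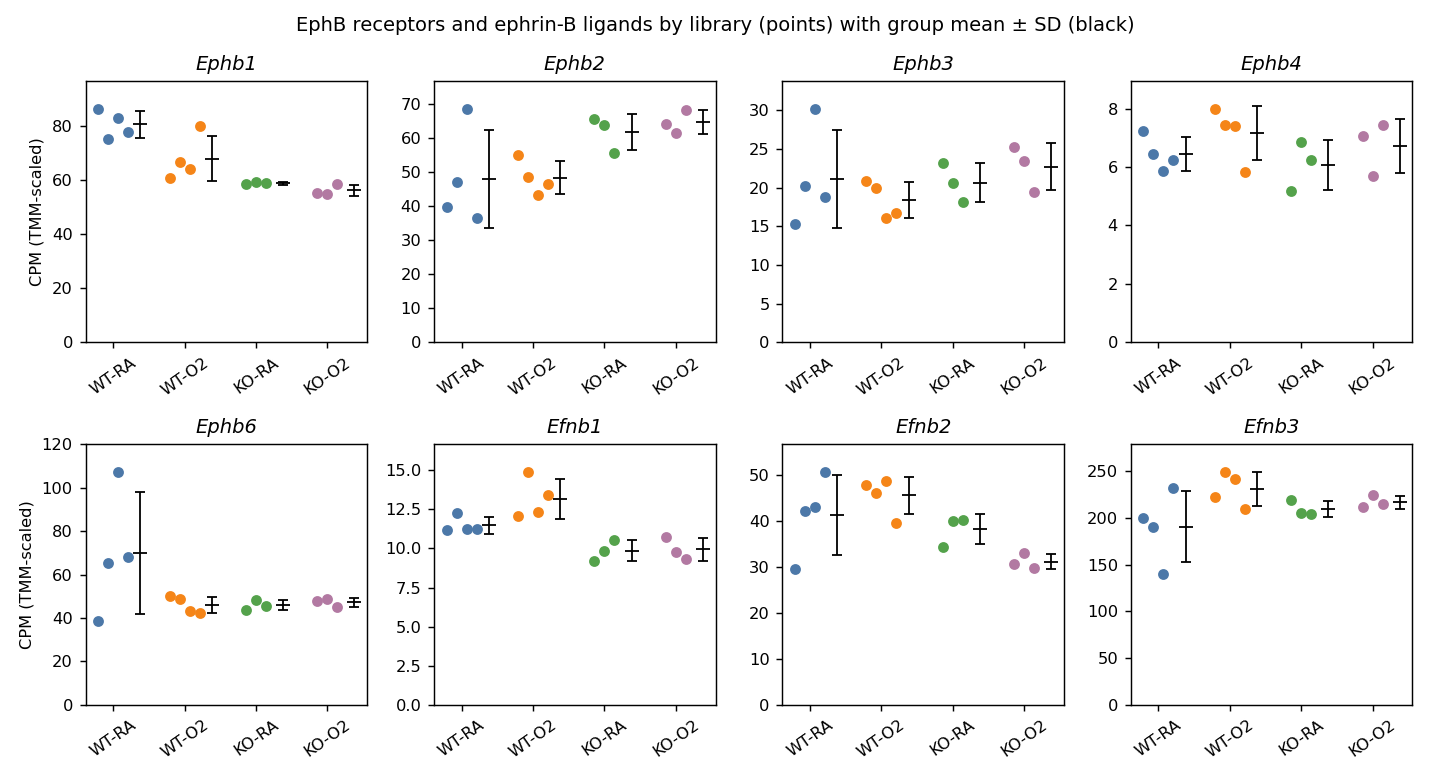
CPM of each gene in the 14 libraries, 1 point per library in order of replicate number within each group, with group mean ± SD in black. Ephb6 spreads from 38.8 to 107 CPM in WT-RA and lies between 42.3 and 49.98 in the other 3 groups, and the KO-O2 points of Efnb1 and Efnb2 lie below those of WT-O2.

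Ephb1 (ENSMUSG00000032537, chromosome 9), a receptor that guides the uncrossed retinal axons and acts at hippocampal synapses, was lower in KO-RA than in WT-RA. The WT-RA libraries had 86.5, 75.2, 83.2 and 78.1 CPM, and the KO-RA libraries 58.5, 59.5 and 58.9 CPM. The groups did not overlap, and KO-RA varied by 0.83% (coefficient of variation) where WT-RA varied by 6.23%. The counting error alone was 2.05% to 2.59%, so the KO-RA spread was smaller than counting is expected to give. KO-RA differed from WT-RA by -0.45 ± 0.08 (SE) on the log2 scale, with an adjusted p of 0.00298 by edgeR's quasi-likelihood test. The call held without any 1 of the 7 libraries and under 10 of 12 other settings. It was lost with a fold change of 1.5, and with striatal and thalamic marker scores as covariates (log2 fold change -0.09, adjusted p 0.93 by edgeR). Genotype itself had an R squared of 0.899 on those scores, so the 2 cannot be told apart.

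In hyperoxia Ephb1 kept the same order of genotypes. The WT-O2 libraries had 61.0, 66.9, 64.2 and 80.3 CPM and the KO-O2 libraries 55.5, 54.8 and 58.5 CPM, without overlap. Their difference was -0.27 ± 0.08 (SE) on the log2 scale with an adjusted p of 0.0636 by edgeR, but it was smaller than the fold threshold and Ephb1 was not called. Within WT, Ephb1 averaged 68.1 ± 8.48 (SD) CPM in WT-O2 and 80.7 ± 5.03 in WT-RA, a log2 fold change of -0.25 with an adjusted p of 0.189 by edgeR. The library of 80.3 CPM lies inside the range of WT-RA, and it is the one whose labels disagree. Without it the fold change was -0.33 with an adjusted p of 0.0508 by edgeR, which passed, and with that mouse as room air it was -0.33 with an adjusted p of 0.0629. This library also had the highest striatal marker sum of all, 816 CPM.

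Ephb6 (ENSMUSG00000029869, chromosome 6), a receptor without kinase activity, was called lower in KO-RA, with a call that rested on WT-RA libraries far from each other. The WT-RA libraries had 38.8, 65.6, 107 and 68.3 CPM, and the KO-RA libraries 43.6, 48.2 and 45.5 CPM. The lowest WT-RA library lay under every KO-RA library, so the groups overlapped. The coefficient of variation was 40.3% in WT-RA, against 4.08% to 8.38% in the other groups and a counting error of at most 3.06%. On the log2 scale the difference was -0.61 ± 0.22 (SE), with an adjusted p of 0.0944 by edgeR. The call was lost in 6 of the 7 fits that left out 1 library. Without WT-RA replicate 3, the highest, the log2 fold change was -0.32 (adjusted p 0.206 by edgeR), and without WT-RA replicate 1, the lowest, it was -0.80 (adjusted p 0.00327). With the striatal and thalamic scores as covariates the value was -0.81 with an adjusted p of 0.223 by edgeR, larger in size but not called. As for Ephb1, the scores cannot be told apart from genotype in this fit.

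The same WT-RA libraries entered the comparison with WT-O2, so these values are not independent of the ones above. The WT-O2 libraries had 49.98, 48.5, 43.1 and 42.3 CPM of Ephb6. They too lay between the lowest and the second-lowest WT-RA library. The log2 fold change of WT-O2 from WT-RA was -0.61 ± 0.20 (SE), with an unadjusted p of 0.00854 and an adjusted p of 0.225 by edgeR, and it was not called. It passed without WT-RA replicate 1 (log2 fold change -0.80, adjusted p 0.0131 by edgeR) and with the marker scores as covariates (-0.37, adjusted p 0.0636). In hyperoxia the genotypes were close, with KO-O2 at 47.9, 48.6 and 45.0 CPM and a log2 fold change from WT-O2 of 0.04 (95% interval -0.43 to 0.50).

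Across the 4 WT-RA libraries, Ephb6 was highest where the summed thalamic markers were lowest and where markers of CA1 pyramidal cells and of neocortical projection neurons were highest. The last list was chosen after values were seen, as was the use of 6 of the 7 CA1 markers. The neocortical and CA1 sums therefore only describe the libraries and cannot test such a relation. The thalamic list was set beside Ephb6 out of many marker lists, so its sum only describes the libraries too. Pearson's r of Ephb6 with the log2 thalamic sum was -0.439 over the 14 libraries. After group means were subtracted it was -0.932, the strongest of the marker lists for this gene. Replicate 3, at 107 CPM of Ephb6, had a thalamic sum of 224 CPM and a neocortical sum of 832 CPM, and its CA1 sum was 640 CPM. Replicate 1, at 38.8 CPM of Ephb6, had 1160 and 545 CPM, and its CA1 sum was 438 CPM. Replicates 2 and 4 lay between on all of these measures, at 518 and 376 CPM for the thalamic and 679 and 676 CPM for the neocortical sum. The neocortical sum was 587 to 647 CPM in WT-O2 and 488 to 538 CPM in KO libraries, and the CA1 sum was 478 to 653 CPM in WT-O2 and 742 to 816 CPM in KO libraries. In WT-O2 too, the replicates with thalamic sums of 645 and 883 CPM had less Ephb6 (43.1 and 42.3 CPM) than those with 416 and 438 CPM (48.5 and 49.98 CPM). Replicate 3 also had the lowest oligodendrocyte (8158 CPM) and striatal (546 CPM) sums and the highest pallial sum (1533 CPM) of WT-RA. Replicate 1 had the highest oligodendrocyte (20330 CPM) and striatal (786 CPM) sums. The KO libraries had low thalamic sums (268 to 309 CPM) together with low Ephb6 (43.6 to 48.6 CPM), so the relation did not extend to them. The covariate fit held only the striatal and thalamic scores, on which genotype had an R squared of 0.899, so it cannot separate region from genotype. What part these regions have in the Ephb6 values was not tested.

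**Figure D3:**
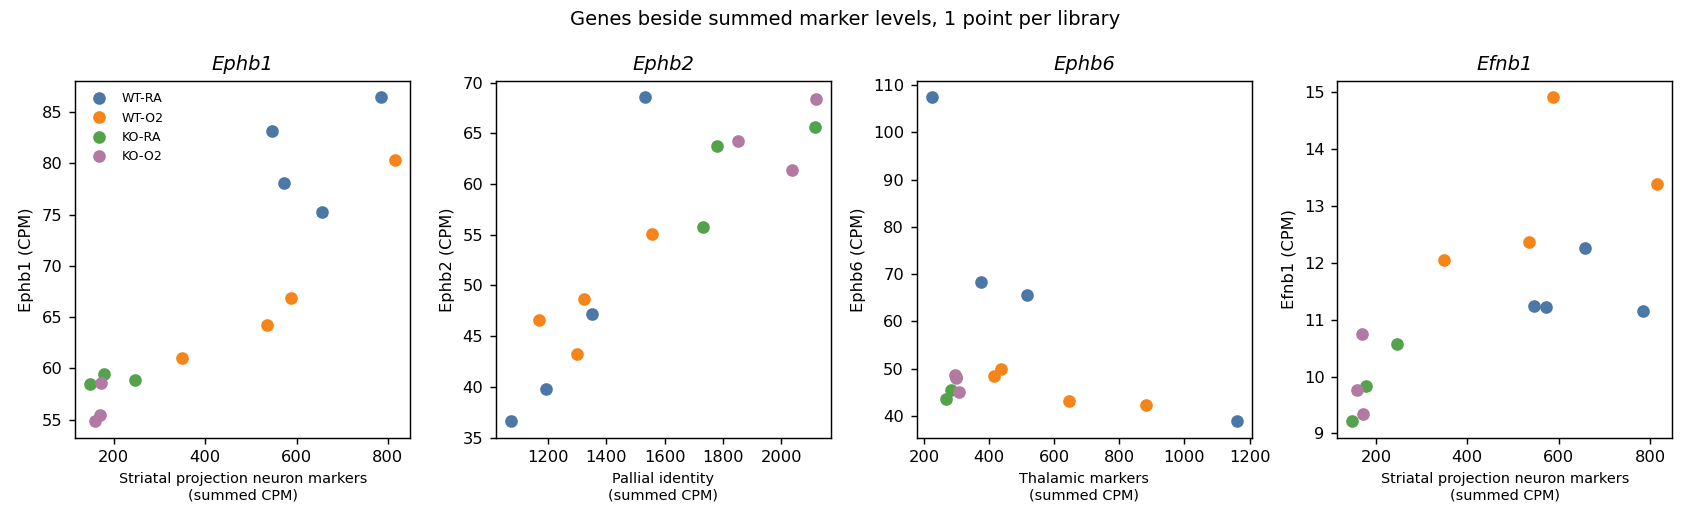
CPM of Ephb1, Ephb2, Ephb6 and Efnb1 against the summed CPM of a marker list, 1 point per library, coloured by group. KO libraries cluster at low striatal sums (149 to 247 CPM) with low Ephb1, and the WT-RA library with the lowest thalamic sum (224 CPM) has the highest Ephb6 (107 CPM).

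Ephb2 (ENSMUSG00000028664, chromosome 4), the receptor that binds NMDA receptors at the synapse, had higher values in KO without passing the threshold. The WT-RA libraries had 39.8, 47.2, 68.6 and 36.6 CPM, and the KO-RA libraries 65.6, 63.7 and 55.7 CPM. WT-RA replicate 3 lay above all KO-RA libraries and the other 3 below. KO-RA exceeded WT-RA by 0.36 ± 0.16 (SE) on the log2 scale, with an adjusted p of 0.188 by edgeR. Without WT-RA replicate 3 it was 0.59 with an adjusted p of 0.00267 by edgeR, and called. The WT-O2 libraries had 55.1, 48.6, 43.3 and 46.6 CPM and the KO-O2 libraries 64.3, 61.4 and 68.4 CPM, with no overlap. That log2 fold change was 0.42 ± 0.16 (SE), with an adjusted p of 0.16 by edgeR, not called. It was called by DESeq2 (adjusted p 0.0843) and by edgeR on these 2 groups alone (adjusted p 0.0108). Beside these values, the 10 pallial identity genes, transcription factors of cortex and hippocampus, summed to 1074 to 1557 CPM in WT and 1732 to 2118 CPM in KO libraries. With the striatal and thalamic scores as covariates the values were -0.025 in room air and -0.017 in hyperoxia. Genotype had an R squared of 0.899 on those scores, so this fit cannot tell the 2 apart.

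Ephb3 (ENSMUSG00000005958, chromosome 16), which shares roles with Ephb2 in commissural axons, was called in none of the comparisons. It ranged from 15.3 to 30.2 CPM in WT-RA, 16.1 to 20.9 CPM in WT-O2, 18.1 to 23.3 CPM in KO-RA and 19.4 to 25.3 CPM in KO-O2. All groups overlapped, and the highest library was again WT-RA replicate 3. Of the 4 differences between groups, that of KO-O2 from WT-O2 was largest, 0.30 (95% interval -0.09 to 0.69) on the log2 scale with an adjusted p of 0.416 by edgeR.

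Ephb4 (ENSMUSG00000029710, chromosome 5), the venous receptor for Efnb2, was the lowest in level of the 8 and was not called. It ranged from 5.87 to 7.24 CPM in WT-RA, 5.82 to 7.99 in WT-O2, 5.16 to 6.86 in KO-RA and 5.69 to 7.43 in KO-O2. The lowest library rested on 139 counts, a counting error of 8.48%, and the coefficients of variation within groups were 8.97% to 14.1%. The 95% intervals of its 4 differences lay between -0.39 and 0.46 on the log2 scale, and none was called by edgeR, DESeq2 or limma-voom. The 7 venous endothelial markers summed to 161 to 196 CPM in WT-RA and 198 to 219 CPM in WT-O2, without overlap. Their sums were 166 to 170 CPM in KO-RA and 166 to 203 CPM in KO-O2. None of the 7 was called by oxygen in either genotype by edgeR. An exon of Zan overlaps Ephb4 on the opposite strand.

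Efnb1 (ENSMUSG00000031217, chromosome X), a ligand of neural progenitors, had lower values in KO mice after hyperoxia. The WT-O2 libraries had 12.1, 14.9, 12.4 and 13.4 CPM, and the KO-O2 libraries 10.7, 9.76 and 9.34 CPM. The groups did not overlap. KO-O2 differed from WT-O2 by a log2 fold change of -0.41 ± 0.09 (SE), with an adjusted p of 0.0202 by edgeR. In room air the order was the same, with 11.2, 12.3, 11.2 and 11.2 CPM in WT-RA and 9.21, 9.83 and 10.6 CPM in KO-RA, again without overlap. That log2 fold change was -0.22 ± 0.09 (SE), with an adjusted p of 0.177 by edgeR, and was not called. Efnb1 in WT-O2 averaged 13.2 ± 1.29 (SD) CPM against 11.5 ± 0.525 in WT-RA, a log2 fold change of 0.20 with an adjusted p of 0.366 by edgeR.

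Efnb1 lies on the X chromosome, and Y-linked genes were expressed in 1 of 4 WT-RA, 3 of 4 WT-O2, 1 of 3 KO-RA and 1 of 3 KO-O2 libraries. Efnb1 ranged from 10.6 to 13.4 CPM in the 6 libraries that expressed them and from 9.21 to 14.9 CPM in the other 8. The call in hyperoxia stayed with Y-linked expression as a covariate. It was lost without KO-O2 replicate 3 (log2 fold change -0.36, adjusted p 0.105 by edgeR) and with the striatal and thalamic scores (-0.04, adjusted p 0.98). Those scores cannot be told apart from genotype, as stated for Ephb1.

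Efnb2 (ENSMUSG00000001300, chromosome 8), the ligand of arteries and of synapses, was the other gene lower in KO-O2. The WT-O2 libraries had 47.9, 46.1, 48.5 and 39.6 CPM and the KO-O2 libraries 30.6, 33.0 and 29.7 CPM. Every KO-O2 library lay below every WT-O2 library. The log2 fold change was -0.55 ± 0.14 (SE), a fold of 1.46 lower, with an adjusted p of 0.0285 by edgeR. Without KO-O2 replicate 3 it was -0.52 with an adjusted p of 0.123 by edgeR, not called. With the marker scores as covariates it was -0.78 with an adjusted p of 0.41, so the size grew while the call was lost. For Efnb2 too, that fit cannot tell the scores apart from genotype. The 9 arterial markers summed to 66.3 to 88.7 CPM in WT and 70.2 to 97.6 CPM in KO libraries, and 0 of 9 were called by edgeR in either comparison of genotypes.

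In room air Efnb2 did not separate the genotypes, with 29.4, 42.1, 42.9 and 50.7 CPM in WT-RA and 34.4, 39.9 and 40.1 CPM in KO-RA. The KO-RA libraries all lay inside the range of WT-RA, and the log2 fold change was -0.11 (95% interval -0.40 to 0.17). Within KO, every KO-O2 library was below every KO-RA library. The log2 fold change of KO-O2 from KO-RA was -0.29 ± 0.14 (SE), with an unadjusted p of 0.0621 and an adjusted p of 0.997 by edgeR. Efnb2 was the 1 member whose KO groups did not overlap, beside 11.8% of all genes. Within WT the log2 fold change was 0.14 (95% interval -0.12 to 0.41). The difference between these responses, the interaction, was -0.43 ± 0.19 (SE), with an unadjusted p of 0.0383 and an adjusted p of 1 by edgeR.

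Efnb3 (ENSMUSG00000003934, chromosome 11) was the most abundant member and was called in no comparison. The WT-RA libraries had 200.5, 190.1, 140.3 and 232.3 CPM and the WT-O2 libraries 222.4, 249.6, 241.5 and 210.0 CPM. WT-RA replicate 3, highest for Ephb2, Ephb3 and Ephb6, was lowest for Efnb3. The log2 fold change of WT-O2 from WT-RA was 0.27 ± 0.11 (SE), with an unadjusted p of 0.0259 and an adjusted p of 0.328 by edgeR. The KO libraries were close to each other, at 204.4 to 219.6 CPM in KO-RA and 211.6 to 224.3 CPM in KO-O2. The log2 fold change between genotypes was 0.14 (95% interval -0.12 to 0.39) in room air and -0.09 (-0.35 to 0.17) in hyperoxia.

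**Figure D4:**
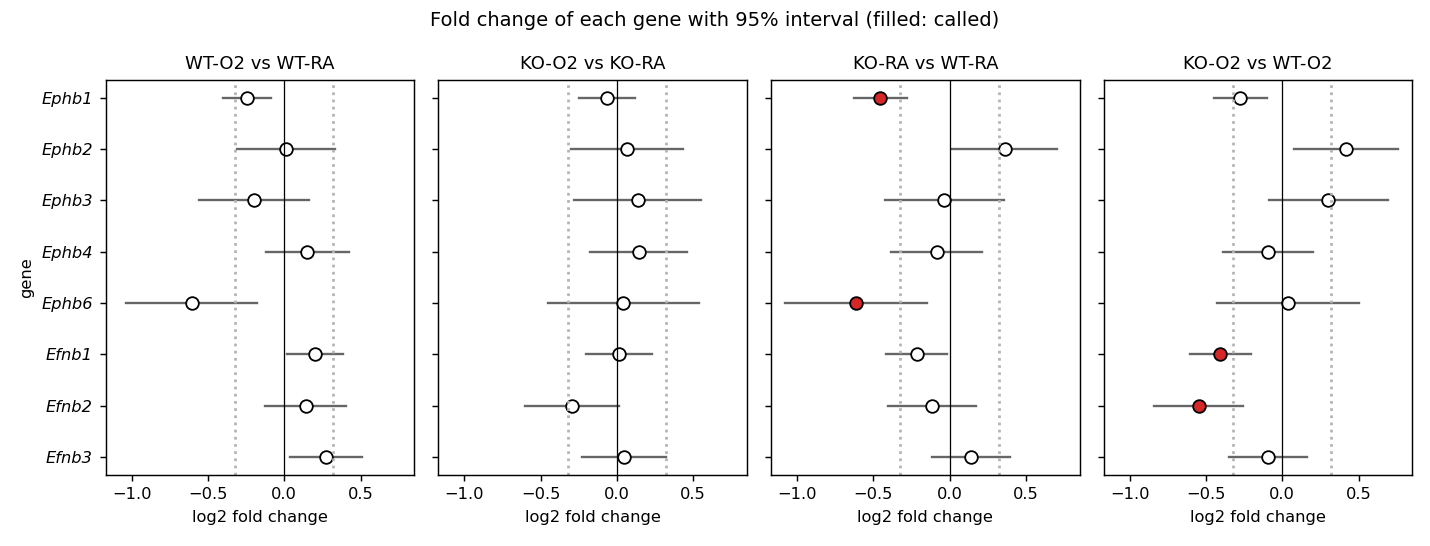
Log2 fold change of each gene in 4 comparisons with its 95% interval from edgeR; filled points were called and dotted lines mark 0.32 on the log2 scale, the fold threshold. Ephb1 (-0.45) and Ephb6 (-0.61) are filled in room air and Efnb1 (-0.41) and Efnb2 (-0.55) in hyperoxia, all lower in KO, and no point is filled for either comparison of oxygen.

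Hyperoxia itself was tested in each genotype, the question of the study's exposure. In WT, 0 of 8 genes were called by edgeR, DESeq2 or limma-voom, beside 0.643% of all genes by edgeR. Ephb1, Ephb6, Efnb1 and Efnb3 had an unadjusted p under 0.05 by edgeR, 4 of 8 beside 12.2% of all genes. No member's WT groups were free of overlap, beside 5.99% of all genes. The values of the 3 ligands were all above 0, from 0.14 to 0.27 on the log2 scale, those of Ephb1, Ephb3 and Ephb6 were below 0, from -0.61 to -0.20, and those of Ephb2 (0.01) and Ephb4 (0.15) were above 0. In KO, 0 of 8 were called by any of the 3 tools, beside 0.012% of all genes by edgeR, and 0 of 8 had an unadjusted p under 0.05, beside 4.86%. For the interaction 0 of 8 were called, beside 0% of all genes. Efnb2 alone had an unadjusted p under 0.05 there, beside 4.05% of all genes, and Ephb6 had 0.65 ± 0.31 (SE) with an unadjusted p of 0.0514 by edgeR. Between the genotypes, 4 of 8 members had an unadjusted p under 0.05 in room air (23.5% of all genes) and 4 of 8 in hyperoxia (18.7%). Groups did not overlap for Ephb1 and Efnb1 in room air (19.6% of all genes) and for Ephb1, Ephb2, Efnb1 and Efnb2 in hyperoxia (19%). The median log2 fold change of the 8 was -0.10 in room air and -0.09 in hyperoxia, against -0.01 over all genes in each.

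The genotype comparisons differed in many marker lists, which stand here beside the members. All 12 striatal markers were called lower in KO in both comparisons, with a median log2 fold change of -1.88 in room air and -1.97 in hyperoxia. Drd1, a dopamine receptor of striatal neurons, averaged 24.2 CPM in WT-RA and 3.704 CPM in KO-RA. Of the thalamic markers 6 of 13 were called lower in both, and of the oligodendrocyte markers 10 of 10 in room air and 6 of 10 in hyperoxia. Of the pallial identity genes 8 of 10 were called higher in both comparisons and 1 lower in room air. Of the 10 dentate granule cell markers, 8 were called higher and 1 lower in room air, and 1 higher and 1 lower in hyperoxia. None of the 12 endothelial markers was called by edgeR, and their sums overlapped in all comparisons, at 321 to 430 CPM in WT and 271 to 397 CPM in KO libraries. Ephb1 and Efnb1 were lower in KO as the striatal sum was, and within WT-O2 the library with the lowest striatal sum (350 CPM) had the lowest Ephb1 (61.0 CPM) and the lowest Efnb1 (12.1 CPM). Efnb1 did not keep the order of that sum in WT-O2. The library with the highest striatal sum (816 CPM) had 13.4 CPM of Efnb1, and that with 589 CPM had 14.9 CPM. Within WT-RA neither gene followed the order of the striatal sum.

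The genes most like each member were taken by Pearson's r of log2 CPM over the 14 libraries, which share groups, so that a group difference alone can give a high r. Ephb6 was near to Tbr1 (r = 0.969), a transcription factor of cortical projection neurons, and to Cdk5r2 (0.947). Ephb2 was nearest to Bcl11a (0.942), Mgat4b and Sertad4. Ephb1 was nearest to Fbxo32 (0.96), Medag and Gabrd, and Ephb3 to Trim46 (0.894), Ndrg3 and Rimbp2. Ephb4 had the weakest likeness, with Socs3 (0.815), Nxpe2 and Tnfrsf1a. Among the ligands, Efnb1 was nearest to Zfp618 (0.9), Kcna5 and Asic4, Efnb2 to Gabra3 (0.931), Prr16 and Cct8, and Efnb3 to Ankrd55 (0.927), Rxfp3 and Qpct. After group means were subtracted, Gabra3, a GABA-A receptor subunit, was again nearest to Efnb2 (0.939). The nearest genes after that step were Stx1a for Ephb6 (0.988), Acly for Ephb1 (0.927), Arhgef7 for Ephb2 (0.973), Gucy1b1 for Ephb3 (0.954), Plekhg2 for Ephb4 (0.942), Mme for Efnb1 (0.867) and Nkd2 for Efnb3 (0.963). Spearman's rank correlation was lower for Stx1a (0.78), Acly (0.763) and Gabra3 (0.758), and 0.881 to 0.938 for the rest. Each gene was picked as the highest among all tested genes outside the Gm-numbered and Rik ones, so a high r is to be expected by selection.

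Partners of the family were read from lists that were also chosen with earlier results known. Of 30 forward signalling partners, 1 was called higher and 2 lower in KO-RA than WT-RA, a share near the 10.4% of all genes called there, with a median log2 fold change of -0.04 against -0.01 over all genes. Dab1, the adaptor of the reelin pathway, was higher (0.54, adjusted p 0.000495 by edgeR), and Arhgef15 (-0.58, adjusted p 0.0188), an exchange factor for RhoA that EphB2 signalling removes, and the kinase Abl1 (-0.35, adjusted p 0.0252) were lower. In hyperoxia 3 were higher and 1 lower, beside 6.86% of all genes, with Kalrn, the Rac exchange factor kalirin of dendritic spines, at 0.43 (adjusted p 0.0284 by edgeR), the adaptor Nck2 at 0.43 (0.00761) and Arhgef15 at -0.51 (0.0537). Arhgef15 is also known from endothelium. Its 12 markers were not called, and their median log2 fold change was -0.135 in room air and -0.1 in hyperoxia. The cell source of the Arhgef15 values was not tested.

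Of the 23 reverse signalling partners tested, of 24 listed, 3 were called higher and 3 lower in room air (10.4% of all genes) and 3 higher and 2 lower in hyperoxia (6.86% of all genes). The forward and reverse lists share Nck2, Dab1 and Src. The calls of Dab1 in room air and of Nck2 in hyperoxia are therefore counted in both lists. Grip2 and Rgs3, which bind the ephrin-B tail, were the 2 called lower in hyperoxia. Other tail binders of the list, such as Grip1 and Pick1, were not called lower there. Grip2, a PDZ scaffold, averaged 27.6 CPM in WT-RA and 15.9 CPM in KO-RA (log2 fold change -0.79, adjusted p 0.000357 by edgeR) and had -0.48 in hyperoxia (adjusted p 0.0125). Rgs3, which couples ephrin-Bs to G proteins, had -0.86 in room air (adjusted p 0.0474 by edgeR) and -0.83 in hyperoxia (0.0784). Reln, the ligand of the reelin pathway, was higher in room air (0.42, adjusted p 0.0287 by edgeR).

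Of 15 genes of shedding and turnover, Klk8 and Ptpro were called higher in KO-RA than WT-RA, beside 10.4% of all genes. Klk8, the protease neuropsin that cleaves EphB2, averaged 4.94 CPM in WT-RA and 12.03 CPM in KO-RA (log2 fold change 1.28, adjusted p 0.000113 by edgeR), and 5.76 and 10.1 CPM in WT-O2 and KO-O2 (0.81, adjusted p 0.00365). Ptpro, a phosphatase that acts on Eph receptors, was the only partner called between WT-O2 and WT-RA (0.47, adjusted p 0.0556 by edgeR), and it was also higher in KO-RA than in the same WT-RA libraries (0.48, adjusted p 0.00487). None of the 3 lists had a gene called in KO-O2 vs KO-RA by edgeR.

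The related EphA receptors and ephrin-A ligands were listed beside the EphB family. Of 14 genes, 5 were called higher and 2 lower in room air (10.4% of all genes), and 4 higher and 2 lower in hyperoxia (6.86% of all genes), and none by oxygen in either genotype. Epha6 was higher in KO in both (0.99, adjusted p 0.000345, and 0.76, adjusted p 0.00323 by edgeR), and Epha7 in room air (0.52, adjusted p 0.0567). Efna4 was higher in hyperoxia (0.90, adjusted p 0.0718 by edgeR) at a level of only 0.876 CPM in WT-O2 and 1.64 CPM in KO-O2. Efna5, a ligand of axon mapping, was lower in both (-1.31, adjusted p 0.000838, and -1.25, adjusted p 0.0022 by edgeR), and so was Epha10 (-0.37, adjusted p 0.0433, and -0.38, adjusted p 0.0538). Whether the 2 families differ in their share of calls was not tested.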

How the data were processed

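Per the labels and the methods of the paper, poly(A) RNA of 14 hippocampi was sequenced as paired-end reads, and the authors deposited estimated counts per gene made with kallisto (GRCm39) and summed with tximport. Versions and count scaling are not given in the sources used here, and 41% to 43.2% of values in a library were not whole. The estimated counts were rounded, filtered (filterByExpr) and TMM-normalized, and all 4 groups were fitted with 1 coefficient each in edgeR 4.0.16 (R 4.3.3). Quasi-likelihood tests were adjusted by Benjamini-Hochberg over 16637 genes. CPM were TMM-scaled, and log2 CPM used a prior count of 2. P-values set group differences against the spread between mice within groups, estimated over all 14 libraries. No term for litter or mouse number range was in the model.

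Named genes are the 8 members, at most 2 called rises and 2 called falls per partner list and comparison, and 3 like genes a member plus 1 after subtracting group means. Gm-numbered and Rik genes were left out of the last, and 1 like gene is not reported here. The members and lists were chosen with earlier results of these data known. Alternatives were DESeq2 1.42.0, limma-voom (limma 3.58.1), other scalings and filters, 2-group fits, stricter thresholds, mouse GSD408 as room air, striatal and thalamic marker scores as covariates, each library left out, and, chosen after seeing the data, Y-linked expression as a covariate. Promoters are RefSeq windows of GRCm38.p6, and transcript lengths and exon overlaps are from GENCODE M21, a different build from the counts. The script was tested on simulated data.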

Additional observations from a re-analysis of the deposited data

Results flagged for a closer look

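Of 16 groups of 4 libraries, 1 was flagged for a sample far from the others, about what chance gives at 1 in 20 groups. In WT-RA, Efnb1 in replicate 2 was 12.3 CPM, while the other 3 libraries lay at 11.2 CPM. The gap made up 0.934 of the whole range of the group, above Dixon's critical value, although the group's SD was only 0.525 CPM. The groups of 3 KO mice were not tested in this way, because the rule asked for at least 4 libraries. The cause was not tested.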

How the results depend on the processing

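No paired analysis was possible because the labels give the groups no shared replicate numbers. Of 728 values of single members under the alternatives, 671 kept their direction and side of the threshold, 16 lost and 8 gained a call, and 33 changed sign. In WT-O2 vs WT-RA the count of members called moved from 0 to 1 with mouse GSD408 as room air (Ephb1) and to 1 with the striatal and thalamic scores (Ephb6). In KO-RA vs WT-RA it moved from 2 to 1 with limma-voom, with 2 groups alone, with a q below 0.05, with GSD408 as room air or with Y-linked expression (Ephb1 stayed), to 1 with a fold of 1.5 (Ephb6 stayed), and to 0 with the scores (Ephb6 then at -0.81, Ephb1 at -0.09). In KO-O2 vs WT-O2 it moved from 2 to 0 with a fold of 1.5 and to 0 with the scores. With each library left out in turn the counts were 0 to 1, 1 to 2 and 0 to 3, with 0 only without KO-O2 replicate 3 in the last and 3 without WT-O2 replicate 1, where Ephb1 joined. The scores turned KO-RA vs WT-RA to -0.025 for Ephb2 and 0.163 for Efnb1, KO-O2 vs WT-O2 to 0.091 for Ephb1, -0.017 for Ephb2, -0.299 for Ephb3 and -0.337 for Ephb6, and the interaction to 0.003 for Ephb4. Values near 0 also changed sign. These were -0.001 for Efnb1 in KO-O2 vs KO-RA by library size alone, 0.002 (limma-voom) and 0.028 (GSD408 as room air) for Ephb3 in KO-RA vs WT-RA, -0.002 for Ephb6 in KO-O2 vs WT-O2 with GSD408 as room air, and -0.039 for Ephb2 in the interaction with Y-linked expression. With a library left out, sign changes gave ranges of -0.101 to 0.233 (Ephb2) and -0.322 to 0.025 (Ephb3) in WT-O2 vs WT-RA, -0.048 to 0.064 (Efnb1) in KO-O2 vs KO-RA, -0.153 to 0.195 (Ephb3), -0.177 to 0.022 (Ephb4) and -0.236 to 0.003 (Efnb2) in KO-RA vs WT-RA, -0.173 to 0.015 (Ephb4) in KO-O2 vs WT-O2, and -0.162 to 0.172 (Ephb2) and -0.114 to 0.097 (Ephb4) in the interaction. Counts over all genes moved too. WT-O2 vs WT-RA went from 107 to between 6 (GSD408 as room air) and 310 (DESeq2), and KO-O2 vs KO-RA from 2 to between 0 (GSD408 as room air) and 13 (DESeq2). KO-RA vs WT-RA went from 1738 to 942 with a fold of 1.5, 1076 without KO-RA replicate 1 and 15 with the scores, and KO-O2 vs WT-O2 from 1142 to 607, 675 without KO-O2 replicate 3 and 10 with the scores. The cause was not tested.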
